A study of Saccharomyces cerevisiae with 21 samples.

Results

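The genes described here make purine nucleotides in budding yeast, and their transcripts were followed on microarrays while a culture was dried, held dry and given water again. They are ADE1, ADE2, ADE4, ADE6, ADE8, ADE12, ADE13, ADE17, IMD3 and IMD4, 10 genes of the 5656 that the arrays measure by at least 1 probe set with a single annotated gene. The probe sets of a gene were those whose annotation lists that gene and no other, 11 probe sets in all, and where a gene had 2 of them, as IMD4 did, the one with the higher mean over all arrays stood for it. All 10 genes were tested, since no filter on low signals was applied.

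Cells build purines stepwise on activated ribose phosphate, PRPP, until the ring is closed in inosine monophosphate (IMP). From IMP the pathway forks: adenylosuccinate synthase and lyase lead to AMP, and IMP dehydrogenase followed by GMP synthetase leads to GMP. In budding yeast the ADE genes are known to be activated by the transcription factors Bas1 and Pho2 when adenine is scarce, and cells given adenine or related bases can instead use salvage enzymes. Purine synthesis is known to run high in growing cells, which need nucleotides for RNA and DNA.

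Every sample came from BY4743, a diploid laboratory strain derived from S288C that lacks functional HIS3, LEU2 and URA3, so all groups share those deletions and the ADE and IMD genes are intact in the strain as it is known. The culture grew at 30 °C in YPD, a rich medium with glucose, to an A600 of 0.8. It was then moved to 1:20 YPD at 22 to 25 °C, and the control was taken at that point. The other groups were 18 h of drying in dishes (50% dry per the titles), the dry state reached after 42 h of drying and a further 72 h at 20% relative humidity, and 15, 45, 90 and 360 min after 1:20 YPD was added back. Each of the 7 groups had 3 arrays. The control was not kept for those hours in dilute medium, so the effects of dilute medium, temperature, time and water loss cannot be told apart. After rehydration the contents of several dishes were pooled. Whether the 3 replicates of a group were separate cultures is not stated, so p-values measure only the spread between these arrays, and that spread may be technical.

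Signals keep the deposited units, in which the authors' scaling put the 2% trimmed mean of each array between 500.2 and 500.6, and means are given ± SD (n = 3). Changes are differences of mean log2 signal ± SE from a limma fit across all probe sets, and a gene is said to have risen or fallen where the adjusted p was under 0.05. A signal of 29.6 marks background. In a bulk sample scaled in this way, a transcript that each cell holds in smaller amount and a transcript that fewer cells hold cannot be told apart. Signals of different probe sets are not compared with each other.

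Several facts of the whole series touch these results. Of the deleted genes, URA3 was at or below background on all 21 arrays, the 3 probe sets of LEU2 reached at most 25.6, 74.5 and 77.3, with 21, 19 and 7 arrays at or below background, and HIS3 reached 997.6 on one of its 2 probe sets (the deletion of HIS3 in this strain is known to be partial, so those probe sets check nothing). The mean log2 signal of 9 spike-in control probe sets rose from 8.39 in the control to 8.68 at 18 h, 8.70 in the dry state, 9.42 at 15 and at 45 min, 9.75 at 90 min and 10.7 at 360 min. Scaling on them instead lowers the median change of all probe sets by 0.29 for 18 h against control, by 0.73 for 15 min against dry and by 2.01 for 360 min against dry, so each rise after rehydration below is relative to the other transcripts on its array. RNA per cell was not measured, so scaling on these controls is an alternative scale and not a measure of transcript per cell. The ratio of 3′ to 5′ signal for ACT1, on the log2 scale, went from -0.31 in the control to 0.61, 1.05, 1.72, 1.89, 2.43 and 2.32 at the later time points in order. For SRB4 it was 0.82 in the control and between 1.72 and 2.46 afterwards, and for SPT15 1.66 in the control, 1.27 in the dry state and 2.78 at 360 min. The part of RNA quality in the results was not tested. Control arrays shared a scan day with only 1 array of the 18 h group, and no scan day held both dry and 360 min arrays.

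All 10 purine genes differed among the time points by limma's moderated F test, as did 84.2% of all probe sets. All 10 fell by 18 h of drying, by 3.15-fold to 31.5-fold. Of all 9275 probe sets, 27.3% fell and 63.5% changed in either direction, and the median change was -2.46 for the 10 genes against 0.11 for all probe sets. The 10 genes were chosen with earlier results of these data known, so these shares do not test whether purine genes fell as a set. Of the 2 other measured genes listed for the path to IMP, ADE3 fell and ADE16 did not pass (-0.29). For none of the 10 did the 18 h arrays overlap the control arrays, where 73.7% of all probe sets showed no overlap. The direction was the same under quantile normalization, median centring and spike-in scaling. With the scan day as a block, which within that day compares 1 array of 18 h with 3 of the control, all 10 still fell, with changes between -5.24 and -1.43.

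**Figure D1:**
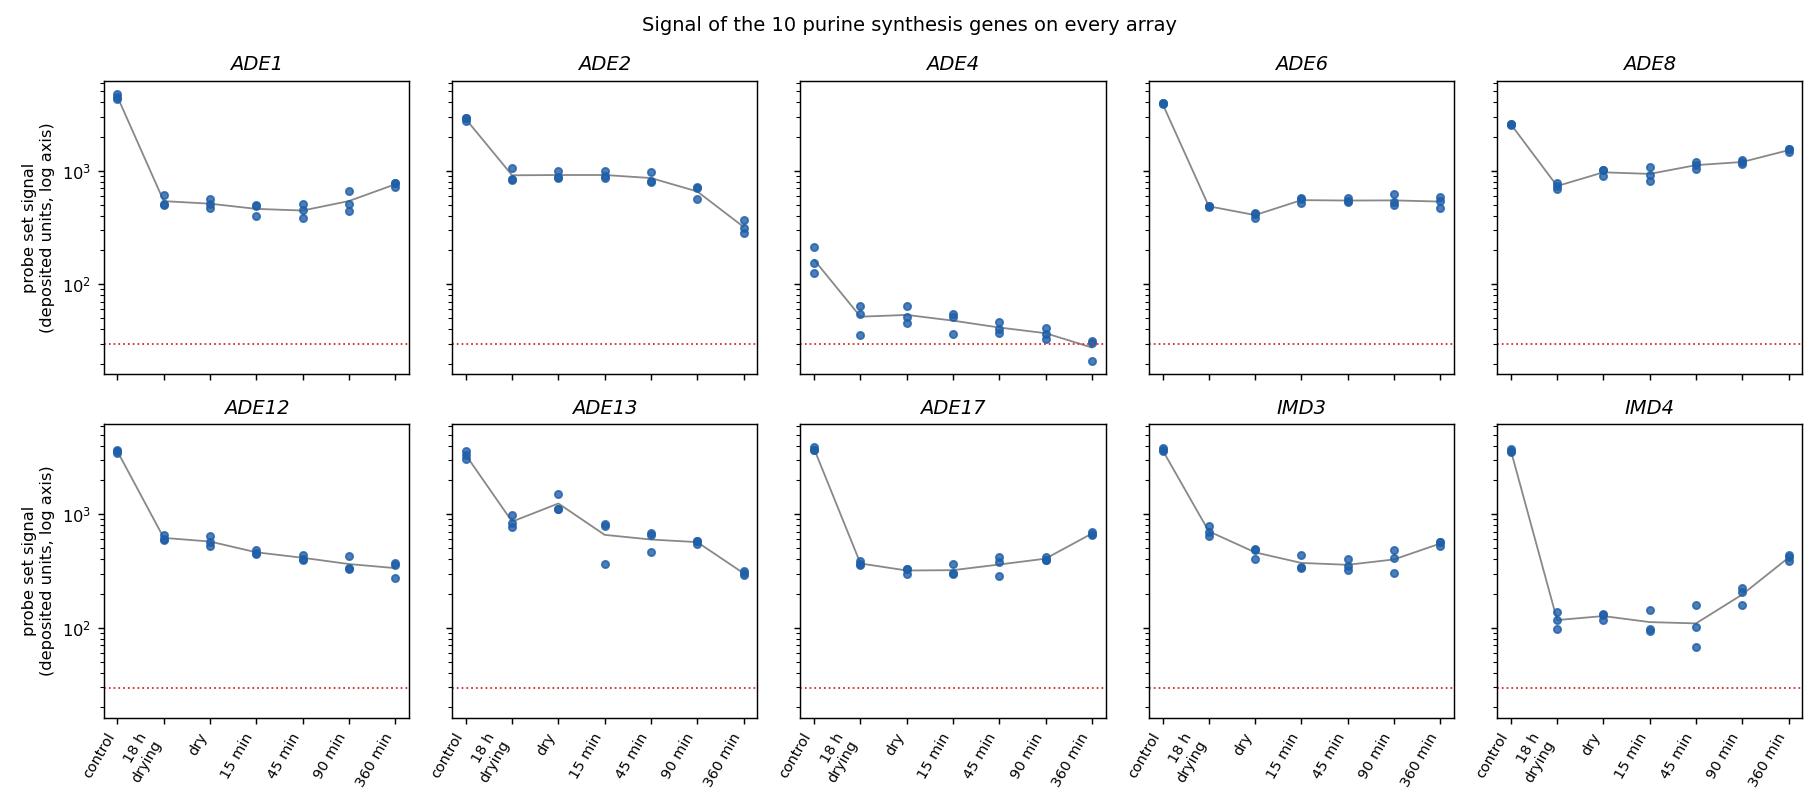
Signal of each of the 10 genes on every array (deposited units, log axis) against time point, with 1 point per array, a line through the means of 3 arrays and a dotted line at the background signal of 29.6. Every gene is lower on all later arrays than on any control array, and ADE4 reaches background on 1 array at 360 min.

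The first committed step, transfer of an amide nitrogen to PRPP, is catalysed by the product of ADE4 (YMR300C). ADE4 had the dimmest probe set, with control signals of 211.6, 126.7 and 153.1 and signals of 64.6, 35.7 and 54.9 at 18 h. It fell by 1.67 ± 0.24 on the log2 scale (adjusted p = 1.32e-05). The values were 45.7, 51.5 and 63.7 in the dry state and 30.5, 21.1 and 31.4 at 360 min, where 1 of 3 arrays was at or below background and the level was 16.9% of control. ADE4 therefore stood close to background for most of the course, and its later changes are measured less well than those of the other genes.

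ADE8 (YDR408C), which encodes the glycinamide ribotide transformylase, fell less than most and was the one that came nearest to its starting level. Its control signals were 2551.1, 2596.0 and 2568.0, and at 18 h they were 691.7, 779.4 and 728.2, a fall of 1.81 ± 0.09 on the log2 scale (3.51-fold, adjusted p = 5.53e-11). Signals were 892.7, 1009.1 and 1007.0 in the dry state and 1449.3, 1562.6 and 1543.8 at 360 min. On the deposited scale ADE8 was thus lowest at 18 h, before the cells were dry. At 360 min it stood at 59.1% of control, still lower by 0.76 ± 0.09 on the log2 scale (adjusted p = 1.86e-06). Under spike-in scaling its change from dry to 360 min came to -1.36.

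ADE6 (YGR061C), for the next enzyme in the path, formylglycinamidine ribotide synthetase, had the least spread of the group. Signals were 3946.8, 3928.4 and 3840.1 in the control, 479.6, 490.3 and 489.7 at 18 h, and 417.0, 421.8 and 381.8 in the dry state. The fall at 18 h was 8.03-fold (log2 change -3.00 ± 0.09, adjusted p = 6.79e-14). After 15 min of water the signals were 519.7, 574.0 and 559.6, above every dry array in deposited units. At 360 min they were 546.2, 585.1 and 473.7, at 13.7% of control. Under spike-in scaling the change at 15 min against dry came to -0.29.

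ADE2 and ADE1 act one after the other on the imidazole ribotide, ADE2 (YOR128C) as the carboxylase whose loss is known to turn yeast colonies red, and ADE1 (YAR015W) as the synthetase of the succinyl-carboxamide intermediate SAICAR. On the deposited scale they moved in different ways after the shared fall. ADE1 went from 4716.5, 4280.7 and 4446.9 in the control to 512.9, 498.6 and 608.7 at 18 h, a fall of 8.32-fold (log2 change -3.06 ± 0.14, adjusted p = 1.61e-11), and ADE2 from 2911.4, 2725.3 and 2930.9 to 851.9, 1058.2 and 826.9, a fall of 3.15-fold (-1.65 ± 0.13, adjusted p = 9.97e-09). At 360 min ADE1 had signals of 720.9, 774.8 and 783.9, all above its dry arrays of 505.1, 470.3 and 562.7. ADE2 at that time had 366.7, 281.2 and 312.9, all below its dry arrays of 868.5, 880.5 and 1003.4. ADE1 was then at 17.0% of control and ADE2 at 11.2%. Under spike-in scaling the change of ADE1 from dry to 360 min came to -1.44.

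ADE17 (YMR120C) encodes one of a pair of bifunctional enzymes that close the ring to IMP. Its control signals of 3685.3, 3718.3 and 3885.7 became 354.8, 384.3 and 365.4 at 18 h, a 10.2-fold fall (log2 change -3.35 ± 0.11, adjusted p = 2.82e-13). The dry arrays gave 300.3, 326.7 and 330.7, and those of 360 min 665.2, 698.7 and 662.6. On the deposited scale ADE17 was thus higher at 360 min than on any array from 18 h to 90 min, at 18.0% of control. Under spike-in scaling its change came to -0.22 from 90 to 360 min and -0.92 from dry to 360 min.

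On the branch from IMP to AMP, ADE12 (YNL220W) encodes adenylosuccinate synthase and ADE13 (YLR359W) adenylosuccinate lyase, an enzyme that also acts before IMP. Both had their lowest mean at 360 min, though ADE12 did not pass against 90 min (-0.12 ± 0.12, adjusted p = 0.471). ADE12 signals were 3575.8, 3655.6 and 3499.5 in the control, 589.4, 610.8 and 657.1 at 18 h (5.78-fold lower, log2 change -2.53 ± 0.12, adjusted p = 2.00e-11), 519.9, 563.8 and 639.8 in the dry state, and 370.4, 275.2 and 359.8 at 360 min. For ADE13 they were 3308.4, 3075.9 and 3606.1 in the control, 776.4, 830.5 and 976.4 at 18 h (3.88-fold lower, -1.96 ± 0.24, adjusted p = 2.27e-06), 1516.0, 1108.2 and 1108.6 in the dry state, and 301.1, 290.8 and 314.2 at 360 min. At 360 min they stood at 9.37% and 9.07% of control.

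On the branch from IMP to GMP, IMD3 (YLR432W) and IMD4 (YML056C) encode IMP dehydrogenases, the enzyme that is rate-limiting for guanine nucleotides. IMD4 had the largest fall of the 10 genes, from 3589.4, 3789.3 and 3547.5 to 137.2, 96.6 and 116.4 at 18 h, or 31.5-fold (log2 change -4.98 ± 0.24, adjusted p = 2.09e-11). Its second probe set gave 2309.9, 2552.6 and 2509.4 in the control and 53.5, 59.4 and 39.5 at 18 h. IMD3, whose probe set carries a suffix for sequences shared within a gene family and may also read its relatives, went from 3806.8, 3657.0 and 3577.8 to 691.0, 786.0 and 645.3, a 5.22-fold fall (-2.38 ± 0.15, adjusted p = 4.99e-10). Both probe sets of IMD4 therefore showed the deep fall, and IMD3 a shallower one.

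**Figure D2:**
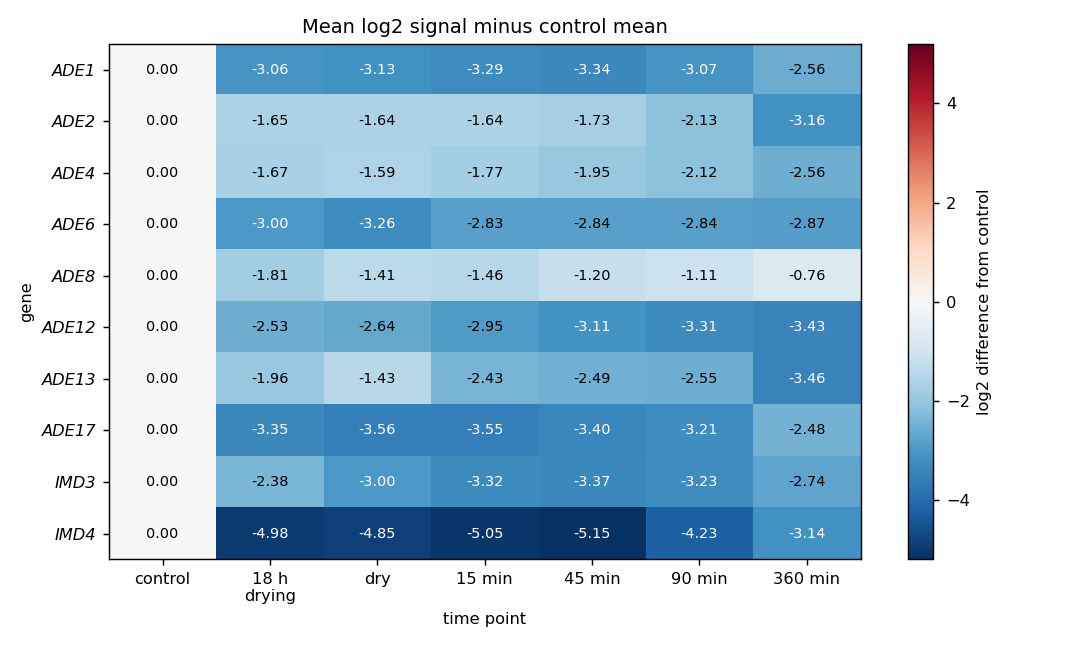
Mean log2 signal of each gene (rows) at each time point (columns) minus its control mean, 3 arrays per mean, with the value written in each cell and blue for lower than control. All cells after the control are negative, with IMD4 the lowest at -5.15 at 45 min and ADE8 the least lowered at -0.76 at 360 min.

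Between 18 h of drying and the dry state the changes were smaller than at 18 h against control. ADE8 rose by 0.40 ± 0.09 (adjusted p = 0.00279), while IMD3 fell by 0.62 ± 0.15 on the log2 scale (adjusted p = 0.00326) and ADE6 by 0.26 ± 0.09 (adjusted p = 0.032). The other 7 did not pass the test, so 3 of 10 changed where 39.2% of all probe sets did. Among those 7, ADE13 read 0.52 ± 0.24 higher (adjusted p = 0.102), with all its dry arrays above its 18 h arrays. The ADE8 rise does not pass the test under median centring or spike-in scaling, nor the ADE6 fall under spike-in scaling or without any one of 5 of the 6 arrays compared. Against the same control arrays, all 10 were still lower in the dry state, as 27.2% of all probe sets were, with log2 changes from -1.41 for ADE8 and -1.43 for ADE13 to -3.56 for ADE17 and -4.85 for IMD4.

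How many of these transcripts changed in the first 15 min after water was added depended on the scaling. On the deposited scale 2 of 10 changed against dry, where 40.4% of all probe sets did. With median centring 4 of 10 rose, as did 2575 of all 9275 probe sets. With spike-in scaling 9 of 10 fell, as did 5855 of all 9275 probe sets. At 15 min against dry, ADE6 rose by 0.44 ± 0.09 (adjusted p = 0.00121) on the deposited scale but not under spike-in scaling (-0.29), and ADE13 fell by 0.99 ± 0.24 on the log2 scale (adjusted p = 0.00382) but not with median centring or a fit of these 2 groups alone. The ADE13 arrays at 15 min read 785.7, 362.8 and 825.7, so its fall was largest on replicate 2. The remaining 8 did not pass on the deposited scale. From 15 to 45 min 0 of 10 changed by limma, with 1 at an unadjusted p under 0.05, and 0.42% of all probe sets changed at this step.

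From 45 to 90 min IMD4 rose by 0.92 ± 0.24 (adjusted p = 0.0358), from 67.6, 102.3 and 157.4 to 159.2, 207.4 and 221.7, and the other 9 did not pass, where 5.51% of all probe sets changed. This was the weakest of the calls. The second probe set of IMD4 did not pass at this step (0.09 ± 0.25, adjusted p = 0.899), nor did the first in 8 of the other settings tried, among them spike-in scaling.

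**Figure D3:**
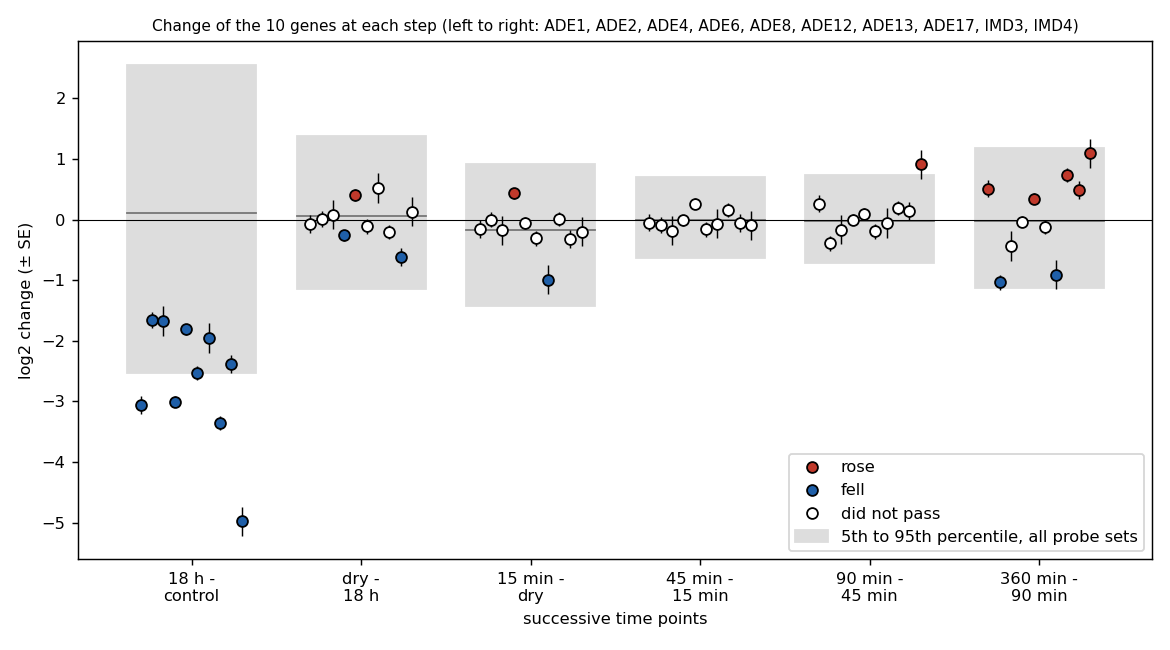
Log2 change (± SE) of the 10 genes at each successive step, from left to right in each column ADE1, ADE2, ADE4, ADE6, ADE8, ADE12, ADE13, ADE17, IMD3 and IMD4, with grey boxes for the 5th to 95th percentile of all probe sets. All 10 fell at the first step, and the last step holds 5 that rose and 2 that fell on the deposited scale. Under spike-in scaling none of the 10 rose at the last step, where only 69 of all 9275 probe sets did.

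The genes parted between 90 and 360 min. On the deposited scale ADE17 rose by 0.73 ± 0.11 (adjusted p = 9.70e-05), IMD4 by 1.09 ± 0.24 and ADE1 by 0.51 ± 0.14. IMD3 rose by 0.49 ± 0.15 and ADE8 by 0.34 ± 0.09 on that scale, where 15.4% of all probe sets rose. Under spike-in scaling none of the 10 rose, where only 69 of all 9275 probe sets did. ADE2 fell by 1.04 ± 0.13 on the log2 scale (adjusted p = 1.45e-05) and ADE13 by 0.91 ± 0.24 (adjusted p = 0.00719), where 22% of all probe sets fell. ADE4, ADE6 and ADE12 did not pass. Within the scan day that holds 2 arrays of 90 min and 3 of 360 min, all 7 of these changes passed the test.

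Set against the dry state, 5 of the 10 genes were higher at 360 min and 4 were lower, where 21.2% of all probe sets rose and 40.7% fell. IMD4 rose by 1.71 ± 0.24 (adjusted p = 1.14e-05), ADE17 by 1.08 ± 0.11 (adjusted p = 4.59e-07), ADE8 by 0.65 ± 0.09 (adjusted p = 1.73e-05), ADE1 by 0.57 ± 0.14 (adjusted p = 0.0026) and ADE6 by 0.39 ± 0.09 (adjusted p = 0.00135), each of which turns to a lower value under spike-in scaling. ADE13 fell by 2.03 ± 0.24 on the log2 scale (4.08-fold, adjusted p = 1.95e-06), ADE2 by 1.52 ± 0.13 (2.88-fold, adjusted p = 4.53e-08), ADE4 by 0.96 ± 0.24 (adjusted p = 0.00248) and ADE12 by 0.78 ± 0.12 (adjusted p = 3.21e-05), of which ADE4 and ADE12 did not pass with median centring. IMD3 (0.26 ± 0.15, adjusted p = 0.136) did not pass, though it was called higher with quantile normalization and median centring and read lower under spike-in scaling. Under spike-in scaling 0 of the 10 rose and 9 fell, where 66 of all 9275 probe sets rose and 8001 fell. On the deposited scale the median change was 0.33 for the 10 genes and -0.29 for all probe sets. All 3 arrays of 360 min stood apart from the 3 dry arrays for all 10 genes, IMD3 included, as for 68.3% of all probe sets.

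The order of the 10 in this comparison does not follow their order in the path. On the deposited scale ADE2 fell and ADE1, whose enzyme acts next, rose. On the AMP branch ADE12 and ADE13 both fell on that scale, though ADE12 did not pass with median centring. On the GMP branch IMD4 rose on that scale, or came to -0.30 under spike-in scaling, and IMD3 did not pass (0.26 ± 0.15, adjusted p = 0.136). The second IMD4 probe set was also higher as deposited (0.85 ± 0.25, adjusted p = 0.00762). Its arrays at 360 min, 71.4, 106.3 and 150.3, overlap those of the dry state, 76.9, 54.4 and 46.3. The difference between the branches was not tested. The arrays of dry and 360 min cells were scanned on different days, so for these values day and group cannot be told apart. With the day as a random block 9 of 10 passed as before, but such a block cannot separate day from group here.

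None of the 10 regained its control level within 360 min. All 10 were lower than in the control, where 36.4% of all probe sets fell, with log2 changes of -0.76 for ADE8, -2.48 for ADE17, -2.56 for both ADE1 and ADE4, -2.74 for IMD3, -2.87 for ADE6, -3.14 for IMD4, -3.16 for ADE2, -3.43 for ADE12 and -3.46 for ADE13. Apart from ADE8, at 59.1% of control, their signals lay between 9.07% and 18.0% of control. On the deposited scale the lowest means came at different times. These were 18 h for ADE8, the dry state for ADE6 and ADE17, 45 min for ADE1, IMD3 and IMD4, and 360 min for ADE2, ADE4, ADE12 and ADE13. Several neighbours in these orders did not differ beyond their spread, as the step comparisons show. Under spike-in scaling the change from dry to 360 min came to -1.62 for ADE6 and -0.92 for ADE17, so these times depend on the scaling.

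As a description over the 7 time point means, which share the large step after the control, Pearson's r between pairs of the 10 genes ran from 0.397 for ADE2 with ADE8 to 0.992 for ADE1 with ADE17. ADE2 and ADE4 correlated at 0.964, and IMD4 with ADE17 at 0.990.

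ADE16 (YLR028C), the paralog of ADE17 with the same pair of activities, did not follow it. ADE16 signals were 1934.8, 1858.2 and 1952.9 in the control, 1466.7, 1806.0 and 1443.2 at 18 h, 1757.2, 2351.6 and 1666.6 in the dry state, and 1424.4, 1487.4 and 1560.4 at 360 min. The change at 18 h was -0.29 ± 0.14 (adjusted p = 0.0761), which passes under median centring (-0.44), under spike-in scaling (-0.58) and without replicate 2 of 18 h (-0.40). ADE17 fell by 3.06 on the log2 scale more than ADE16 did at 18 h, and in the dry state against control the difference was -3.55. From dry to 360 min ADE16 itself changed by -0.35 ± 0.14 (adjusted p = 0.0358), or 0.17 with median centring, and ADE17 changed by 1.44 more than ADE16 on the same scale. Each of these differences gave an exact two-sided permutation p of 0.1, the smallest that 3 against 3 arrays allow, and 0.15 after adjustment over 18 such tests, so no such test can pass 0.05; the values of the difference did not overlap between the groups in any of the 3 comparisons.

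IMD4 and IMD3 were compared in the same way. IMD4 fell by 2.59 more on the log2 scale than IMD3 at 18 h, and rose by 1.45 more from dry to 360 min, each with an exact two-sided permutation p of 0.1, the smallest possible, and 0.15 adjusted. Against control at 360 min the difference was down to -0.40 (same p). The profiles of IMD4 and IMD3 thus lay furthest apart at 18 h of drying. Since the probe set of IMD3 may also read IMD4 or IMD2, the difference between the genes may be understated or overstated by an amount these data do not give.

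IMD2 (YHR216W), the IMP dehydrogenase gene known to be induced when guanine nucleotides run low, has 3 probe sets, all of the shared-family kind, and all fell at 18 h. The brightest went from 2670 ± 102 to 213 ± 20.5 (12.5-fold, log2 change -3.65 ± 0.18, adjusted p = 2.36e-11) and was at 204 ± 25.4 at 360 min. Against dry it read 0.48 ± 0.18 higher at 360 min (adjusted p = 0.0257), which turns to -1.52 under spike-in scaling and does not pass without replicate 2 of dry or replicate 1 of 360 min, and the other 2 probe sets did not pass.

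GUA1 (YMR217W), for GMP synthetase, stands next to IMP dehydrogenase in the path. Control signals of 3791.9, 3806.1 and 3787.3 became 240.3, 279.5 and 214.4 at 18 h, a 15.6-fold fall (log2 change -3.96 ± 0.16, adjusted p = 3.14e-12), and 187.8, 187.6 and 173.0 in the dry state. At 360 min they were 913.2, 958.6 and 841.2, 4.94-fold above dry (2.31 ± 0.16, adjusted p = 5.09e-09), and under spike-in scaling this rise shrinks to 0.30 and does not pass. GUA1 had a larger rise from dry to 360 min than any of the 10 genes, though the difference was not tested. IMD1 and ADE5,7 were not analysed here.

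**Figure D4:**
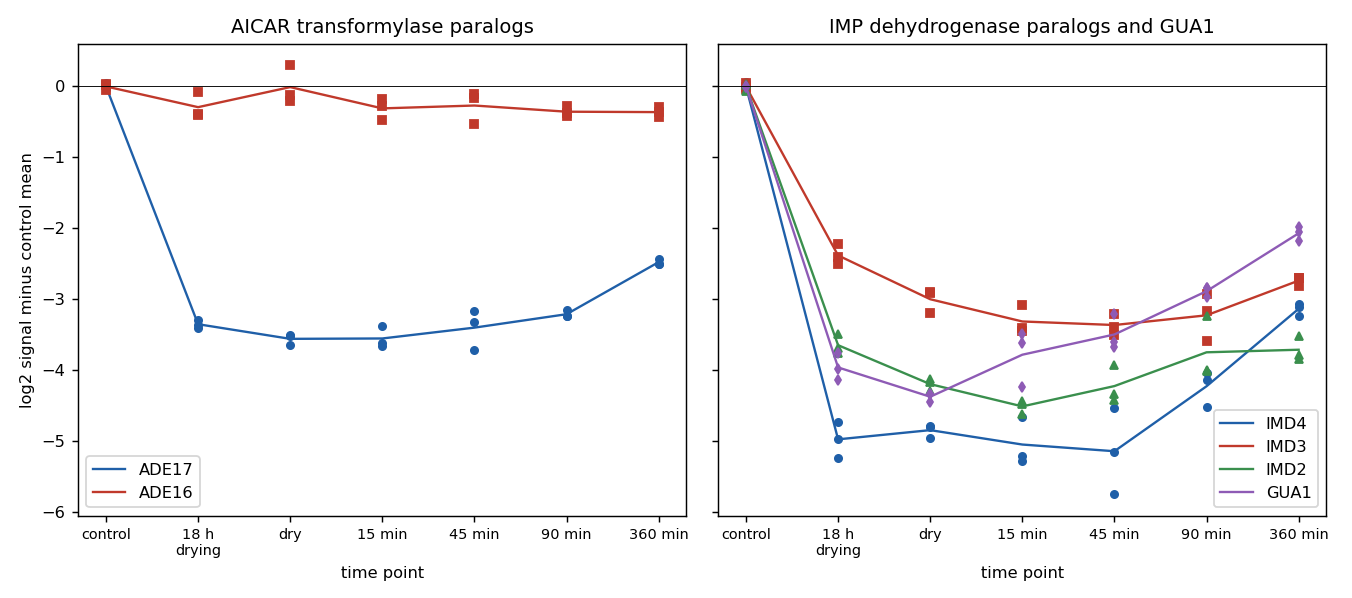
Log2 signal minus the control mean for ADE17 and ADE16 (left) and for IMD4, IMD3, IMD2 and GUA1 (right) against time point, 1 symbol per array and lines through the means of 3 arrays. ADE16 stays between -0.54 and 0.30 while ADE17 lies between -3.72 and -2.43, and GUA1 and IMD4 climb from the dry state to 360 min on the deposited scale, changes that come to 0.30 and -0.30 under spike-in scaling.

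ADE3 (YGR204W) encodes the cytoplasmic enzyme that makes the one-carbon folates consumed by the ADE8 and ADE17 products. It fell with the 10 genes, from 5120 ± 167 to 1433 ± 151 at 18 h (log2 change -1.84 ± 0.12, adjusted p = 1.24e-09). At 360 min it was at 668 ± 45.1 and did not pass against dry (-0.20 ± 0.12, adjusted p = 0.177), with the sign turned under quantile normalization (0.20) and median centring (0.33). Of the 9 genes listed for glycine and one-carbon supply 8 fell and 1 rose at 18 h, where 27.3% of all probe sets fell and 36.2% rose, with a median change of -1.69. The mitochondrial counterpart of ADE3, MIS1, fell from 1201 ± 52.0 to 62.8 ± 5.4 (-4.26 ± 0.16, adjusted p = 9.88e-13). SHM2, a serine hydroxymethyltransferase, had a log2 change of -1.53 ± 0.11, and GCV1 and GCV2, of the glycine cleavage system, had changes of -2.04 ± 0.12 and -2.12 ± 0.14.

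All 5 genes for PRPP synthetase subunits fell at 18 h, as did 27.3% of all probe sets, with a median change of -1.41. PRS4 went from 1410 ± 11.3 to 161.8 ± 17.5 (-3.13 ± 0.18, adjusted p = 2.67e-10), while the log2 change was -1.62 ± 0.09 for PRS5, -1.41 ± 0.13 for PRS1 and -1.14 ± 0.13 for PRS3. PRS2 changed least at 18 h (-0.36). In the dry state against control 4 of the 5 fell and PRS2 rose (0.41) on the deposited scale, where 2521 of all 9275 probe sets fell and 3719 rose. At 360 min against dry 2 of the 5 were higher and 1 lower on the deposited scale, where 21.2% of all probe sets rose and 40.7% fell. All 5 were then below control, as 36.4% of all probe sets were.

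Salvage and interconversion genes were mixed: 8 of 14 fell and 2 rose at 18 h, where 27.3% of all probe sets fell and 36.2% rose, with a median change of -1.10, and 1 of the 14 was at background on all arrays of both groups. Those that fell include AAH1 (adenine deaminase), from 724.9 ± 38.6 to 64.6 ± 12.6 (-3.50 ± 0.18), APT1 (adenine phosphoribosyltransferase), from 1347 ± 37.3 to 144.1 ± 26.2 (-3.24 ± 0.20), and ADO1 (adenosine kinase), from 4006 ± 243.4 to 560.7 ± 27.0 (-2.84 ± 0.13). GUD1 (guanine deaminase, which removes guanine from the salvage pool) rose from 257.5 ± 17.1 to 702.8 ± 36.6 (1.45 ± 0.07, adjusted p = 5.05e-11). At 360 min against dry 3 of the 14 were higher and 6 lower on the deposited scale, close to the 21.2% and 40.7% of all probe sets.

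Of 8 genes for nucleotide kinases and ribonucleotide reductase, 4 fell and 1 rose at 18 h, where 27.3% of all probe sets fell and 36.2% rose, with a median of -0.61. The log2 change was -2.84 ± 0.10 for ADK1 (adenylate kinase), -2.30 ± 0.11 for GUK1 (guanylate kinase) and -2.07 ± 0.13 for RNR1 (the large subunit of the reductase). RNR3, a large subunit gene known to be induced by DNA damage, rose from 61.2 ± 24.5 to 389.4 ± 35.1 (2.76 ± 0.26, adjusted p = 8.33e-08), on a probe set whose suffix marks possible cross-hybridization.

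**Figure D5:**
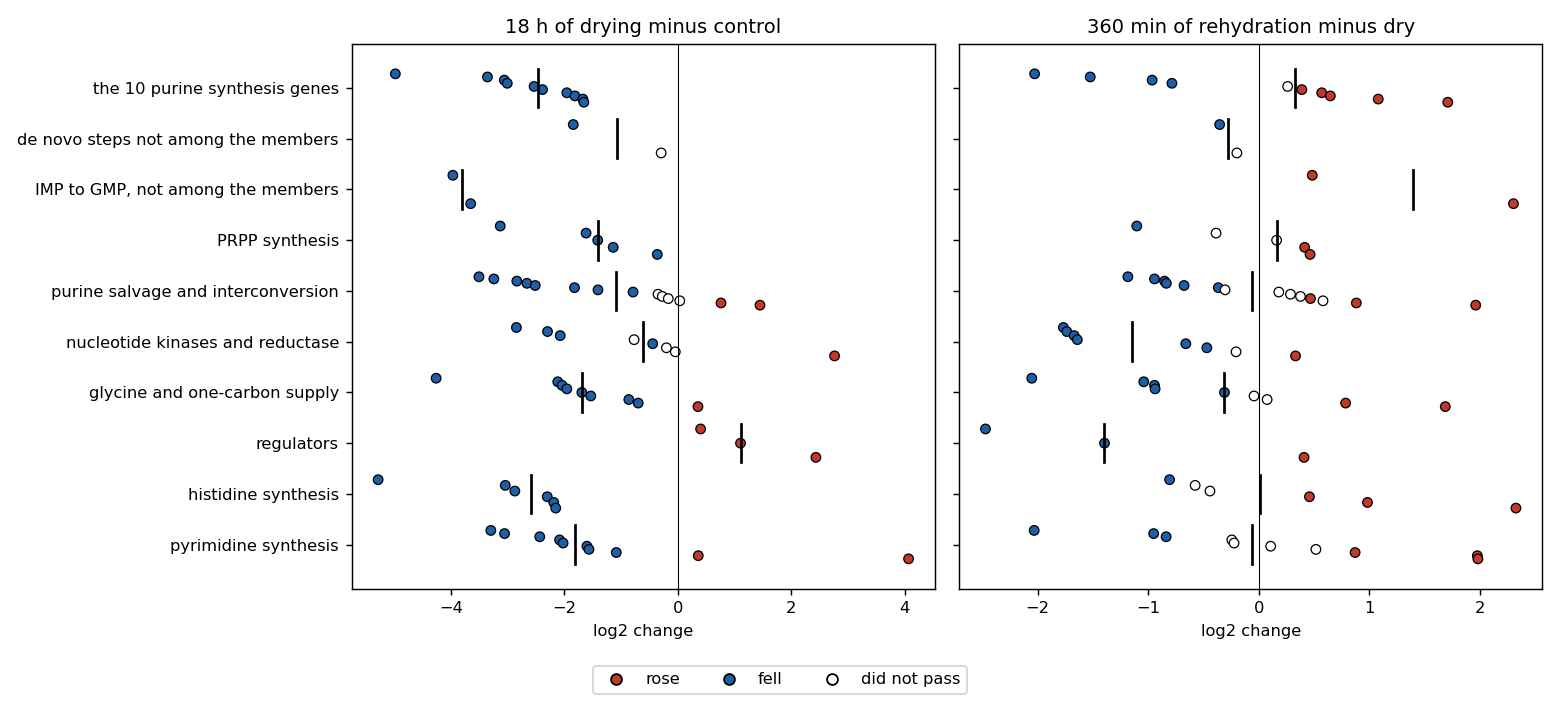
Log2 change of each gene in the purine and neighbouring lists at 18 h against control (left) and at 360 min against dry (right), with red for rose, blue for fell, white for did not pass and a bar at each list's median. At 18 h the 10 genes lie between -4.98 and -1.65 and the 3 regulators above 0. At 360 min the 10 genes lie on both sides of 0 on the deposited scale. Under spike-in scaling none of the 10 rises at 360 min, where only 66 of all 9275 probe sets do.

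At 18 h the transcripts of BAS1 and PHO2 rose while those of all 8 ADE genes fell. Of all probe sets 36.2% rose and 27.3% fell at this step. From dry to 360 min BAS1 and PHO2 fell, as did ADE2, ADE4, ADE12 and ADE13, while ADE1, ADE6, ADE8 and ADE17 rose on the deposited scale. Of all probe sets 40.7% fell and 21.2% rose in that comparison. BAS1 (YKR099W) had signals of 108.3, 104.8 and 125.1 in the control, 247.2, 246.1 and 232.9 at 18 h, and 418.2, 337.1 and 328.8 in the dry state, and PHO2 (YDL106C) 104.5, 71.7 and 92.7, then 521.4, 453.3 and 464.4, then 633.3, 627.4 and 645.5. BAS1 rose by 1.11 ± 0.16 at 18 h (adjusted p = 1.79e-05) and PHO2 by 2.43 ± 0.17 (5.41-fold, adjusted p = 2.06e-09). Both then fell back, to 118.3, 140.1 and 153.8 for BAS1 and 106.6, 153.1 and 92.1 for PHO2 at 360 min, by 1.39 ± 0.16 (adjusted p = 1.73e-06) and 2.47 ± 0.17 (adjusted p = 3.38e-09) on the log2 scale from the dry state. The highest mean was in the dry state for BAS1 (361.4) and at 15 min for PHO2 (744.7). The ADE genes were below control at every later time point, and ADE2, ADE4, ADE12 and ADE13 had their lowest means at 360 min. A relation of either regulator to the ADE genes was not tested. GCN4, a general activator of amino acid genes that is known to be controlled mainly in translation, read 0.40 ± 0.13 higher at 18 h (adjusted p = 0.0152), a call lost under median centring, under spike-in scaling and without replicate 1 or 2 of the control. These are transcript levels, and protein amount or activity was not measured.

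Histidine synthesis shares an intermediate with the purine path, the AICAR that the ADE17 product uses, and some HIS genes are also known targets of Bas1. All 6 HIS genes listed fell at 18 h, as did 27.3% of all probe sets, with a median of -2.59. HIS1 fell from 4203 ± 126.5 to 109.2 ± 19.4 (-5.28 ± 0.15, 38.9-fold, adjusted p = 4.48e-14), and the log2 change was -3.04 ± 0.26 for HIS4, -2.87 ± 0.18 for HIS5 and -2.18 ± 0.19 for HIS6. At 360 min 3 of the 6 were higher than in the dry state and 1 lower on the deposited scale, where 21.2% of all probe sets rose and 40.7% fell, and all 6 were below control, as were 36.4% of all probe sets.

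Pyrimidine synthesis and salvage genes, which make the other nucleotides, fell in 8 of 10 cases and rose in 2 at 18 h, where 27.3% of all probe sets fell and 36.2% rose, with a median of -1.81. FUR1 (uracil phosphoribosyltransferase) fell from 3208 ± 207.1 to 327.6 ± 32.2 (-3.29 ± 0.15), and the log2 change was -3.05 ± 0.21 for URA7 (CTP synthase) and -2.02 ± 0.08 for URA5 (orotate phosphoribosyltransferase). URA10, the minor paralog of URA5, rose from 85.0 ± 10.5 to 1418 ± 59.3 (4.07 ± 0.13, 16.8-fold, adjusted p = 2.16e-13). At 360 min against dry 3 of the 10 were higher and 3 lower on the deposited scale, where 21.2% of all probe sets rose and 40.7% fell. The fall at 18 h was therefore shared by most listed genes of purine, histidine and pyrimidine synthesis, and a difference between the 10 purine genes and those lists was not tested. The lists too were chosen with earlier results of these data known.

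The genes with the most similar profiles, by Pearson's r over the 7 time point means among 4621 genes searched, are given as a description. To the mean profile of the 8 ADE genes these were ARO2 (0.998), SSA2 (0.998), STT3 (0.997), ILV1 (0.995), LYS12 (0.994), ALG8 (0.993), SAM2 (0.993) and VAS1 (0.992), and 228 genes had r over 0.95. To IMD3 they were GCN20 (0.997), FRS1 (0.997), RPS0A (0.996), APT1 (0.996) and PHO90 (0.996), with 313 over 0.95. To IMD4 they were KRS1 (0.996), TRM82 (0.994), SAM4 (0.993), RPL39 (0.993) and MIS1 (0.992), with 119 over 0.95. Pearson's r takes no account of the size of the change.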

How the data were processed

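Total RNA of 21 yeast samples was measured on Affymetrix YG_S98 arrays. The deposited table holds intensities, 1 linear signal per probe set and array, which per the labels' protocols were made with Affymetrix's GeneChip software and a signed-rank procedure (Wilcoxon). A mixed linear model in 2 steps is named there too, but not whether the deposited intensities come before or after it. They were used as deposited. Scan days came from the run records, per the file headers.

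Of 9335 probe sets, 60 chip controls were left out. Signals were raised to a floor of 2.9 (the 5th percentile of positive values, which holds 4.99% of values) before log2. Background is the 95th percentile of signals from 19 controls for genes that yeast lacks. limma 3.58.1 in R 4.3.3 fitted 1 mean per time point to all arrays, with eBayes and Benjamini-Hochberg adjustment over 9275 probe sets. A moderated F test found all 10 genes to differ among time points, as did 84.2% of all probe sets. In simulated data for 18 h against control, 100 probe sets had log2 changes of 1 and 100 had changes of 2. Of these 63% and 85% were called, as were 5 of 9075 unchanged probe sets. In the real comparison 63.5% of all probe sets changed, so these shares do not give the sensitivity of the calls here. Arrays give no read depth, and their number limits the precision. Between 78.6% and 81.4% of an array's probe sets exceeded background.

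Names came from the platform annotation and RefSeq's gene table: 6504 probe sets list 1 gene, 328 several and 2443 none. The 10 genes and the lists were chosen with earlier results of these data known. All 10 are described. Of each list, up to 4 genes with the smallest adjusted p at 18 h are named, and ADE3, ADE16, IMD2, GUA1, BAS1, PHO2 and GCN4 whatever their values. Profiles most like the ADE mean (8 genes), IMD3 and IMD4 (5 each) were taken from genes above background at every time point without a cross-hybridization suffix. Paralog differences per array were compared by exact permutation. Alternatives are given in the closing section. No sequences were used here.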

Additional observations from a re-analysis of the deposited data

How the results depend on the processing

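The falls of the 10 genes against control, at 18 h, in the dry state and at 360 min, kept their direction and passed the test under every alternative run, which were quantile normalization, median centring, spike-in scaling, no floor, the 20th percentile as the floor, log2(value + 50), a filter on dim probe sets, a fit of the 2 groups alone, an intensity trend, the replicate block, the scan day as a block, the dimmer probe set of IMD4 and leaving out each array. At 360 min against control the scan day could only be a random block, which cannot separate day from group there. The spike-in scaling and within-day settings were chosen after seeing the data. Directions after rehydration rest on the scaling. Under spike-in scaling ADE6 at 15 min against dry came to -0.29, the changes from 90 to 360 min to -0.45 for ADE1, -0.61 for ADE8, -0.22 for ADE17 and -0.47 for IMD3, and those from dry to 360 min to -1.44 for ADE1, -1.62 for ADE6, -1.36 for ADE8, -0.92 for ADE17, -1.74 for IMD3, -0.30 for IMD4, -1.52 for IMD2 and -1.60 for GCN4, with 0 of the 10 rising and 9 falling in the last comparison. GCN4 from dry to 360 min, 0.41 as deposited, came to -0.18 with quantile normalization, ADE3 to 0.20 with quantile normalization and 0.33 with median centring, and ADE16 to 0.17 with median centring. Of the 10 genes, the number changed at 15 min against dry was 2, and 4 with median centring, 9 with spike-in scaling and 1 in a fit of 2 groups; in the dry state against 18 h it was 3, and 1 with spike-in scaling; from 45 to 90 min it was 1, and 0 in a fit of 2 groups, with the replicate block, with the scan day as a random block or with the dimmer IMD4 probe set. Probe sets changed from 15 to 45 min numbered 39, and 25 with median centring, 59 with the higher floor, 0 with spike-in scaling, 1 in a fit of 2 groups, 64 with an intensity trend, 21 with the replicate block and 60 with the scan day block. From 45 to 90 min they numbered 511, and 2 in a fit of 2 groups and 186 with the day as a random block. With spike-in scaling 2420 changed in the dry state against 18 h (3636 as deposited), 5930 at 15 min (3744) and 6024 from 90 to 360 min (3470). Median centring moved the median change of all probe sets by 0.38 at 15 min and 0.52 at 360 min against dry, and spike-in scaling by -2.32 at 360 min against control. Of the probe sets called, the share that was higher was 57.0% at 18 h against control (44.3% with spike-in scaling), 56.5% in the dry state against 18 h (41.5% with median centring), 59.6% in the dry state against control (48.1% with median centring, 48.6% with spike-in scaling), 31.7% at 15 min against dry (51.2% with quantile normalization, 70.3% with median centring, 1.26% with spike-in scaling), 64.1% from 15 to 45 min (80% with median centring), 39.7% from 45 to 90 min (1.96% with spike-in scaling), 41.2% from 90 to 360 min (53.1% with median centring, 1.15% with spike-in scaling), 34.3% at 360 min against dry (46.4% with quantile normalization, 59.99% with median centring, 0.818% with spike-in scaling) and 48.1% at 360 min against control (5.15% with spike-in scaling). Leaving out each array gave 12 to 85 probe sets changed from 15 to 45 min and 245 to 581 from 45 to 90 min, 0 to 1 of the 10 genes from 45 to 90 min, 2 to 3 at 15 min against dry, and a difference of changes between IMD4 and IMD3 of -0.13 to 0.31 at 15 min and -0.27 to 0.20 at 45 min, and between ADE17 and ADE16 of -0.011 to 0.28 at 45 min. Replicate numbers do not pair the arrays: same-numbered arrays deviated with correlations of -0.135 to 0.0942, and the replicate block changed no other count of the 10 genes. The cause of these shifts was not tested. Background limits ADE4, the dimmest of the genes.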
